A study of Sus scrofa with 18 samples.

Results

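The Toll-like receptor genes of the pig, *TLR1* to *TLR10*, are 10 of the 28210 RefSeq genes placed on the 18 autosomes, X and Y of assembly Sscrofa11.1. They were chosen by name and position, with earlier results of these data known. All peaks of H3K4me3 and H3K27ac from 3 kb before to 3 kb after each gene were collected in 3 types of myometrium from Yorkshire gilts. GD15M_CM was the circular muscle and GD15M_LM the longitudinal muscle on day 15 of pregnancy after natural mating, and CD15M_CM was the circular muscle on day 15 of the estrous cycle. Samples of all types were taken from the mesometrial side of the uterus after the endometrium had been cut away, with n = 2 gilts for each type and mark and an IgG control, 18 libraries in all. No treatment or altered allele is named for any group.

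Toll-like receptors recognise molecules that are common to microbes or released from damaged cells, and pass the signal through adaptor proteins to NF-kappa-B and interferon regulatory factors. Some members sit on the cell surface and bind bacterial lipids and proteins, whereas others sit in endosomes and bind nucleic acids. They are best known from macrophages, dendritic cells and B cells, and epithelial and endothelial cells also use them. H3K4me3 is found at the starts of active genes, and H3K27ac is found at active gene starts and enhancers.

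The profiles were made by Cleavage Under Targets and Tagmentation (CUT&Tag), in which a Tn5 transposase brought to an antibody cuts the DNA at marked nucleosomes. Both gilts of a type had been pooled before peaks were called, so each type and mark has 1 peak list and the lists hold no value per gilt. No difference between lists could therefore be set against the spread between gilts, no test was made, and all comparisons are descriptions of 6 pooled lists. The lists hold from 31910 to 36331 H3K4me3 peaks and from 57010 to 82037 H3K27ac peaks, and the read depth behind a peak is unknown from them. Each peak carries its length and its fold enrichment over background, a ratio. Fold enrichments of separate lists need not be on one scale, so each was also ranked among all peaks of its list. The percentile of a gene is that of its peak with the highest fold enrichment, where 100 is the strongest peak of the list, and a gene without a peak has 0. A difference of at least 10 percentile points between lists was counted. All 8 smooth muscle markers, among them *MYH11*, *ACTA2* and *DES*, had peaks in all 6 lists, at percentiles from 68.2 to 98.7. Their medians in the lists ran from 80.0 to 94.2. Of protein-coding genes, 73.1% to 75.8% had a peak in a given list, and those with a peak had medians from 80.2 to 88.0. The markers are therefore only a weak check of the labelled tissue.

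H3K4me3 was found at more of the Toll-like receptor genes than H3K27ac in each type of muscle. H3K4me3 peaks were found at 7 of the 10 genes in GD15M_CM, 9 in GD15M_LM and 7 in CD15M_CM, where 60.0%, 61.0% and 61.7% of all RefSeq genes had a peak in the same kind of window. H3K27ac peaks were found at 6, 5 and 5 of the 10 genes in the same order, beside 62.9%, 61.3% and 64.9% of all genes. Of the 19550 protein-coding genes, 73.7%, 74.6% and 75.4% had an H3K4me3 peak and 73.9%, 73.1% and 75.8% an H3K27ac peak, so 7 of 10 lies close to this background. *TLR2*, *TLR3*, *TLR4*, *TLR5* and *TLR9* had both marks in all 3 types of muscle. *TLR6* had H3K4me3 in all 3 and H3K27ac in GD15M_CM, *TLR8* had H3K4me3 alone, *TLR1* and *TLR10* had H3K4me3 in GD15M_LM alone, and *TLR7* had no peak in any list.

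**Figure D1:**
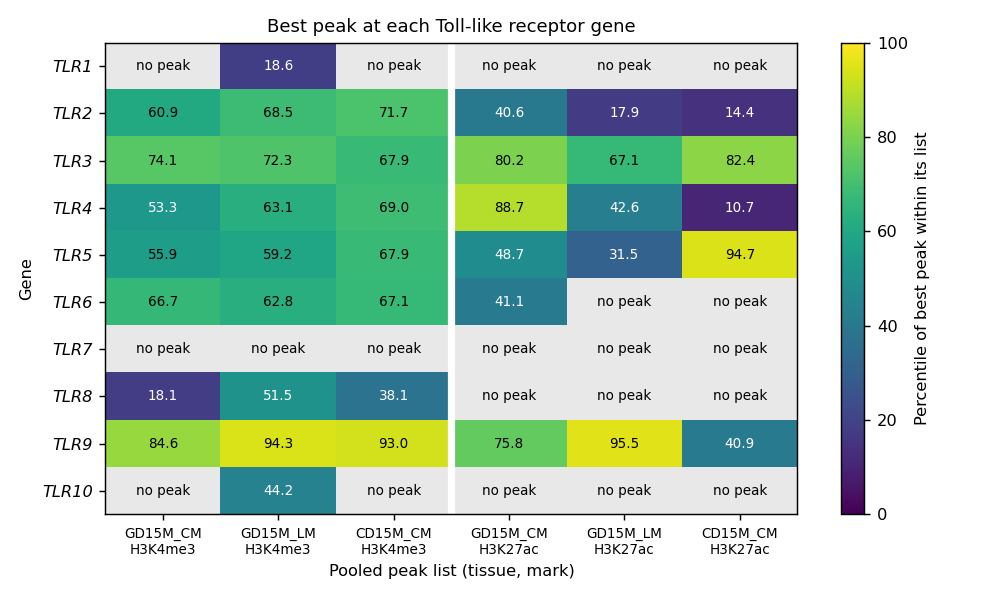
Percentile of the strongest peak within 3 kb of each Toll-like receptor gene (rows) in the 6 pooled peak lists (columns), with the colour scale running from 0 to 100 and grey cells for genes with no peak. *TLR4* runs from 88.7 to 10.7 across the H3K27ac lists, whereas *TLR7* is grey throughout.

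The peaks were of middle rank. The members with an H3K4me3 peak had median percentiles of 60.9 in GD15M_CM, 62.8 in GD15M_LM and 67.9 in CD15M_CM, where the protein-coding genes with a peak had medians of 81.5, 80.2 and 82.5. For H3K27ac the members had medians of 62.3, 42.6 and 40.9, beside 88.0, 84.4 and 86.2 for the protein-coding genes. In all, 76 peaks of 205 to 4090 bp lay in the 10 windows, and 26 of them passed a strict threshold, a fold enrichment of 5 or more together with a −log10 p of 10 or more. Of these strict peaks, 8, 8 and 7 were H3K4me3 peaks of GD15M_CM, GD15M_LM and CD15M_CM, and 1 in each type was an H3K27ac peak. Peaks that overlapped across lists formed 21 sites, of which 10 carried both marks, 8 H3K4me3 alone and 3 H3K27ac alone. The members are not independent places in the genome. *TLR10*, *TLR1* and *TLR6* lie side by side on chromosome 8, the model of *TLR7* lies inside that of *TLR8* on the X chromosome, and the model of *TLR9* overlaps *TWF2*.

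*TLR4*, the receptor for bacterial lipopolysaccharide, had the widest range of H3K27ac percentiles. The gene lies on chromosome 1 from 258044610 to 258054641, and its nearest annotated neighbour is 160204 bp away. Its H3K27ac peak had a fold enrichment of 5.25 in GD15M_CM, 3.59 in GD15M_LM and 2.59 in CD15M_CM, at percentiles of 88.7, 42.6 and 10.7. The peak of pregnant circular muscle thus had 2.02 times the fold enrichment of that of cyclic circular muscle and ranked 78.0 points higher, and it ranked 46.1 points higher than that of pregnant longitudinal muscle. It was the strict H3K27ac peak of GD15M_CM. These peaks were of like length, 1235, 1030 and 1239 bp, and covered the same end of the gene. All 1030 bp of the GD15M_LM peak lay inside the peaks of both other types. GD15M_CM had a further H3K27ac peak of 438 bp, 1124 to 1561 bp from the lower-coordinate end of the gene, at the 80.2 percentile, a place where neither other type had an H3K27ac peak.

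H3K4me3 at *TLR4* was ordered the other way. Its fold enrichment was 5.23 in GD15M_CM, 10.9 in GD15M_LM and 11.9 in CD15M_CM, and its percentiles were 53.3, 63.1 and 69.0. The starts of this peak lay within 43 bp of each other and its ends within 25 bp, with lengths of 2138, 2181 and 2196 bp, so its rank differed between lists and its position hardly did. GD15M_LM alone had an additional H3K4me3 peak, 2516 to 3192 bp into the gene at the 47.6 percentile. Outside the window and within 50 kb of the gene no list had another H3K4me3 peak, and H3K27ac had 0, 1 and 1 peaks in GD15M_CM, GD15M_LM and CD15M_CM.

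*TLR2*, which binds bacterial lipoproteins together with *TLR1* or *TLR6*, had a single peak of each mark in all 3 types. It lies on chromosome 8 from 75416257 to 75428370. Its H3K4me3 fold enrichment was 7.05 in GD15M_CM, 13.8 in GD15M_LM and 13.7 in CD15M_CM, at percentiles of 60.9, 68.5 and 71.7. Its H3K27ac fold enrichment was 3.28, 2.96 and 2.70, at percentiles of 40.6, 17.9 and 14.4. As at *TLR4*, GD15M_CM was thus the lowest of the 3 types in H3K4me3 and the highest in H3K27ac. The peaks of both marks lay at the higher-coordinate end of the gene, from 9790 to 12282 bp after its lower-coordinate end. The H3K27ac peaks, 1009, 760 and 760 bp long, lay wholly within the H3K4me3 peak of their own type.

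*TLR5*, the flagellin receptor, had a peak of each mark at both of its ends in all 6 lists. It spans chromosome 10 from 19387666 to 19410024. The lower-coordinate site lay from −1043 to 59 bp relative to that end. Its H3K27ac percentile was 48.7 in GD15M_CM, 6.98 in GD15M_LM and 94.7 in CD15M_CM. This last value, from a fold enrichment of 6.11, was the strict H3K27ac peak of the cyclic muscle. At the higher-coordinate site, 21021 to 23049 bp from the lower end, the H3K27ac percentiles were 0.342, 31.5 and 32.2. GD15M_CM thus had a peak of 1974 bp there that was among the weakest of its list. H3K4me3 at the lower site ranked at 55.9, 48.3 and 67.9, and at the higher site at 53.7, 59.2 and 64.8. In both marks and at both sites CD15M_CM had the highest percentile of the 3 types.

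**Figure D2:**
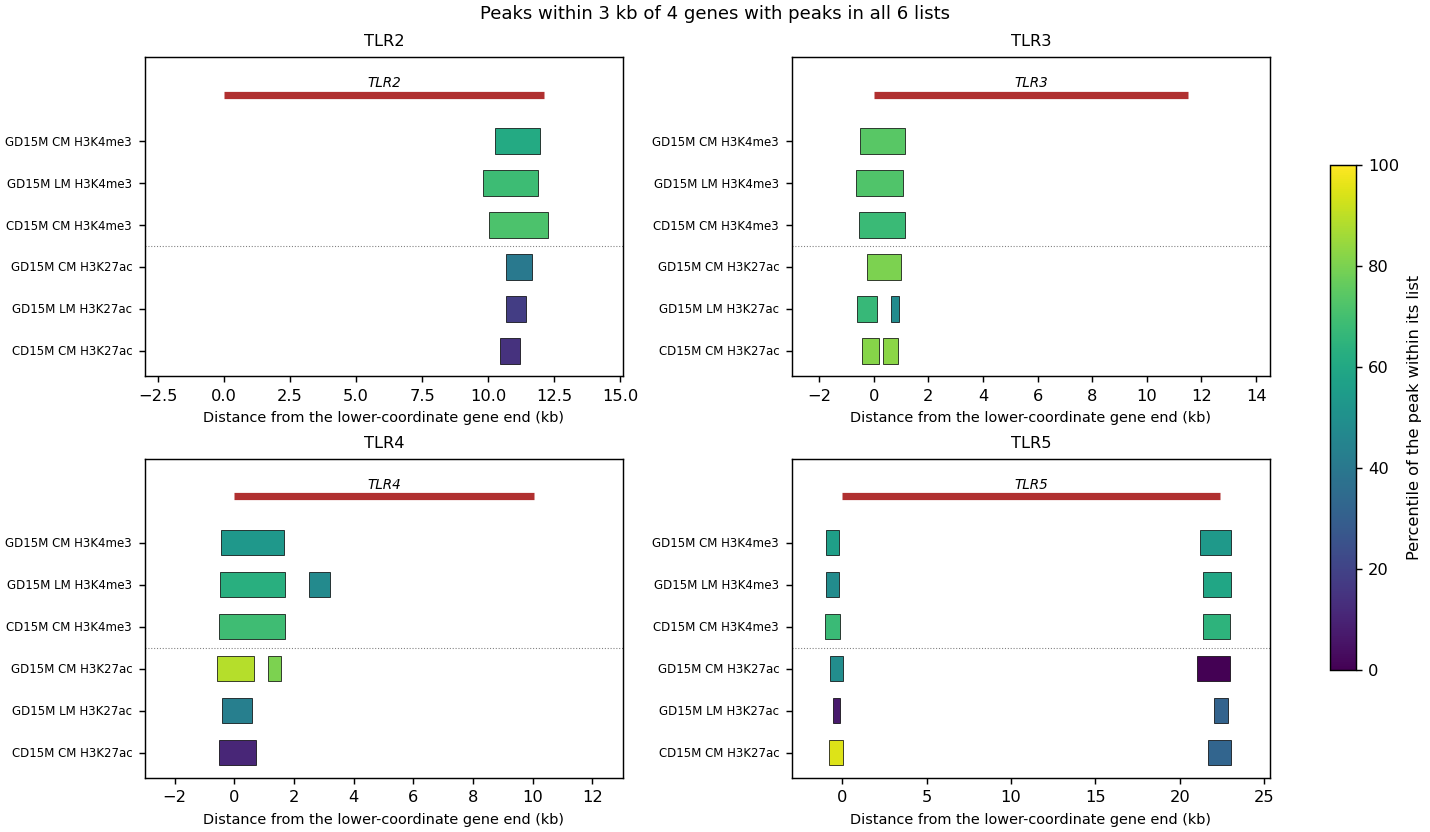
Peaks within 3 kb of *TLR2*, *TLR3*, *TLR4* and *TLR5* by distance in kb from the lower-coordinate end of each gene (red bar), with a row for each of the 6 lists and boxes coloured by percentile. Both marks overlap at one end of *TLR2*, *TLR3* and *TLR4*, and *TLR5* has a site at each end.

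*TLR10*, *TLR1* and *TLR6* follow each other on chromosome 8, where *TLR1* ends 4290 bp before *TLR6* begins. *TLR1* and *TLR6* partner *TLR2*, and *TLR10* is a member of the same subfamily. *TLR6*, from 30159744 to 30180650, had H3K4me3 at its higher-coordinate end with fold enrichments of 9.53 in GD15M_CM, 10.7 in GD15M_LM and 10.7 in CD15M_CM. Its percentiles of 66.7, 62.8 and 67.1 and its lengths of 1556, 1597 and 1554 bp differed little. A site inside the gene, 13925 to 14540 bp from its lower end, had H3K4me3 in both circular muscles, at percentiles of 55.1 in GD15M_CM and 57.1 in CD15M_CM, and none in GD15M_LM. The only H3K27ac peak of *TLR6* lay at that inner site in GD15M_CM, 362 bp long and with a percentile of 41.1 from a fold enrichment of 3.28. Fold enrichments of weak H3K27ac peaks are coarse, and 542 peaks of that list shared this value.

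*TLR1*, from 30147600 to 30155454, had one H3K4me3 peak of 524 bp in GD15M_LM, at a percentile of 18.6 and with a fold enrichment of 3.46. *TLR10*, from 30124895 to 30134854, had one of 217 bp in GD15M_LM, at 44.2 and 4.85. Both peaks lay inside the gene near its higher-coordinate end, with their last bases at −18 and −173 bp relative to that end. Neither reached the strict threshold. The peaks nearest to *TLR10* in other lists lay outside the window, 9474 to 9560 bp before its lower end, except for a peak 5717 bp after its higher end in CD15M_CM H3K27ac. These genes have closely related sequences and the authors removed reads of low mapping quality, so the absence of peaks there is uncertain.

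Among the endosomal receptors, *TLR3*, which senses double-stranded RNA, had the narrowest range of H3K27ac of the 5 genes that carried it in all types. It lies on chromosome 15 from 46966262 to 46977774. Its H3K4me3 percentiles were 74.1 in GD15M_CM, 72.3 in GD15M_LM and 67.9 in CD15M_CM, with fold enrichments of 12.9, 15.8 and 11.2. Its H3K27ac percentiles were 80.2, 67.1 and 82.4, with fold enrichments of 4.55, 4.43 and 4.74. Both marks lay over the lower-coordinate end, the H3K4me3 peaks from −640 to 1159 bp relative to it. H3K27ac was called as 1 peak of 1260 bp in GD15M_CM and as a pair of shorter peaks in the other types. In every type the H3K27ac peaks lay wholly within the H3K4me3 peak of that type. None of them passed the strict threshold, and the fold enrichment of the GD15M_CM peak was shared by 461 peaks of its list, the second *TLR4* peak included.

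*TLR7* and *TLR8*, the receptors for single-stranded RNA, had no H3K27ac in any type of muscle. *TLR8* spans X from 9551284 to 9616762 and holds *TLR7*, from 9573178 to 9576987. *TLR8* had H3K4me3 close to its lower-coordinate end, with percentiles of 18.1 in GD15M_CM, 51.5 in GD15M_LM and 38.1 in CD15M_CM. Peak lengths there were 242 bp in GD15M_CM, 1046 bp in GD15M_LM for the strongest of 4 peaks in the window and 214 bp in CD15M_CM. The peaks of the circular muscles did not overlap each other, and the CD15M_CM peak lay inside the strongest GD15M_LM peak. That GD15M_LM peak, with a fold enrichment of 5.95, was the only one at *TLR8* to pass the strict threshold. The closest H3K4me3 peak to *TLR7* lay 20280 to 22002 bp before it in the 3 lists. The closest H3K27ac peak lay 49267 to 49319 bp after it. Those closest H3K4me3 peaks are among the ones counted at *TLR8*. One model holds the other and strand was not used, so the peaks were assigned by position alone. Which of these genes they belong to was not tested.

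The values of *TLR9*, which recognises unmethylated CpG DNA, could not be told apart from those of *TWF2*, a gene for an actin-binding protein. The RefSeq model of *TLR9* runs from 34353444 to 34370990 on chromosome 13 and covers nearly all of *TWF2*, from 34361294 to 34370997. The H3K4me3 peak over the end that both genes share was 3773 to 4090 bp long, with percentiles of 84.6 in GD15M_CM, 94.3 in GD15M_LM and 93.0 in CD15M_CM. At the same place the H3K27ac peak had percentiles of 75.8, 95.5 and 13.8, and the 95.5 of GD15M_LM belonged to the strict H3K27ac peak of that type. In CD15M_CM a peak of 264 bp before the other end of *TLR9* ranked higher, at 40.9. Of all 76 peaks at the Toll-like receptor genes, 21 overlapped *TWF2*. Without them, H3K4me3 at *TLR9* was left with weak peaks in GD15M_CM and CD15M_CM, at percentiles of 3.67 and 4.21, and none in GD15M_LM. H3K27ac was left with percentiles of 35.6 in GD15M_CM and 40.9 in CD15M_CM and no peak in GD15M_LM.

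**Figure D3:**
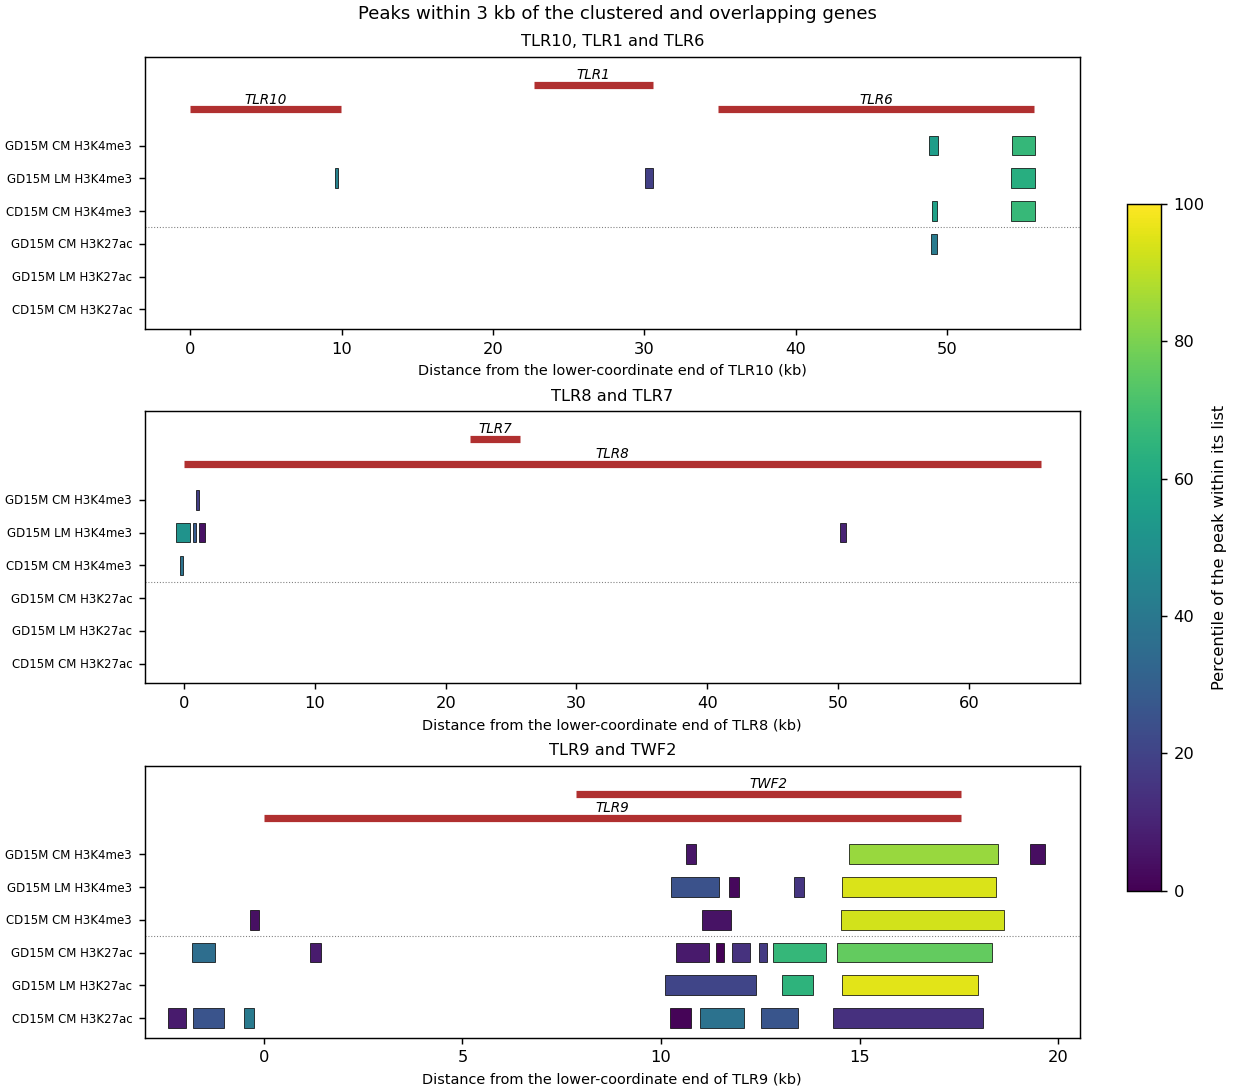
Peaks within 3 kb of the genes that neighbour or overlap each other, by distance in kb from the lower-coordinate end of the first gene, with a row for each of the 6 lists and boxes coloured by percentile. *TLR7* has no peak, *TLR1* and *TLR10* have a narrow one in a single list, and the widest peaks of *TLR9* sit on *TWF2*.

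The comparison of pregnant with cyclic circular muscle asks what differs between the day 15 states. For H3K4me3, 4 Toll-like receptor genes ranked at least 10 points higher in CD15M_CM (*TLR2*, *TLR4*, *TLR5* and *TLR8*), where 14.9% of all genes did, and 0 ranked as much higher in GD15M_CM, where 7.78% did. The differences at these genes were −10.9, −15.7, −12.0 and −20.02 points, GD15M_CM minus CD15M_CM. The fold enrichment was higher in CD15M_CM at each of them, for example 13.7 against 7.05 at *TLR2*. Ranked by −log10 p instead, 1 gene passed 10 points, *TLR8* at −11.1. By that ranking *TLR2*, *TLR4* and *TLR5* differed by −5.33, −6.66 and −1.47 points. The *TLR8* peaks of these muscles did not overlap and neither was strict, and its difference under the strict threshold was 0 points. The other members with a peak differed by −8.40 (*TLR9*), −0.43 (*TLR6*) and 6.14 (*TLR3*) points. All genes with a peak in either list had a median difference of −2.13 points and the members −10.9. Among all genes with a peak in either list, 23.9% ranked at least 10 points higher in CD15M_CM and 12.4% in GD15M_CM.

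For H3K27ac the order was mostly opposite. *TLR2*, *TLR4*, *TLR6* and *TLR9* ranked at least 10 points higher in GD15M_CM, 4 genes beside a background of 17.2%, and *TLR5* ranked as much higher in CD15M_CM, 1 gene beside 18.5%. *TLR4* had a difference of 78.0 points, *TLR6* 41.1, *TLR9* 34.9, *TLR2* 26.2 and *TLR5* −46.0 points, whereas *TLR3* had −2.23 points. The ratios of fold enrichment, GD15M_CM over CD15M_CM, were 2.02 at *TLR4*, 1.31 at *TLR9*, 1.21 at *TLR2* and 0.563 at *TLR5*. All genes with a peak in either list had a median difference of −0.15 points and the members 30.6. Among all genes with a peak in either list, 25.5% ranked at least 10 points higher in GD15M_CM and 27.4% in CD15M_CM. The difference at *TLR6* was that between a peak and none, and that at *TLR9* was −5.34 points without the peaks over *TWF2*. The paper's own differential test of these muscles reported far fewer H3K27ac regions than H3K4me3 regions. It found no such H3K27ac region near the starts of its differentially expressed genes. Neither statement of the paper names a Toll-like receptor gene. The pooled lists hold no spread between gilts, so the rank differences given here are not evidence of a difference between pregnant and cyclic gilts.

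Some markers of macrophages, and some of smooth muscle, also ranked lower in GD15M_CM than in CD15M_CM for H3K4me3. Of 8 macrophage and monocyte markers, 4 ranked at least 10 points higher in CD15M_CM (*CD163*, *MRC1*, *C1QA* and *SPI1*), where 14.9% of all genes did. In GD15M_CM 0 ranked as much higher, where 7.78% of all genes did, and *AIF1* ranked 3.34 points higher there. The medians of the 8 were 47.1 in GD15M_CM and 56.5 in CD15M_CM. *CD163*, a scavenger receptor of tissue macrophages, had no H3K4me3 peak in GD15M_CM and percentiles of 26.0 in GD15M_LM and 60.8 in CD15M_CM. For H3K27ac, *CD163*, *MRC1* and *C1QA* were without a peak in all 3 types. Of the 8 markers 2 ranked at least 10 points higher in GD15M_CM and 1 in CD15M_CM, beside 17.2% and 18.5% of all genes. Of the smooth muscle markers, 4 of 8 also ranked at least 10 points higher in CD15M_CM for H3K4me3 and 1 in GD15M_CM. The part of other cell types in the values of the Toll-like receptor genes was not tested, and in such tissue fewer marked cells and less mark per cell cannot be told apart.

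**Figure D4:**
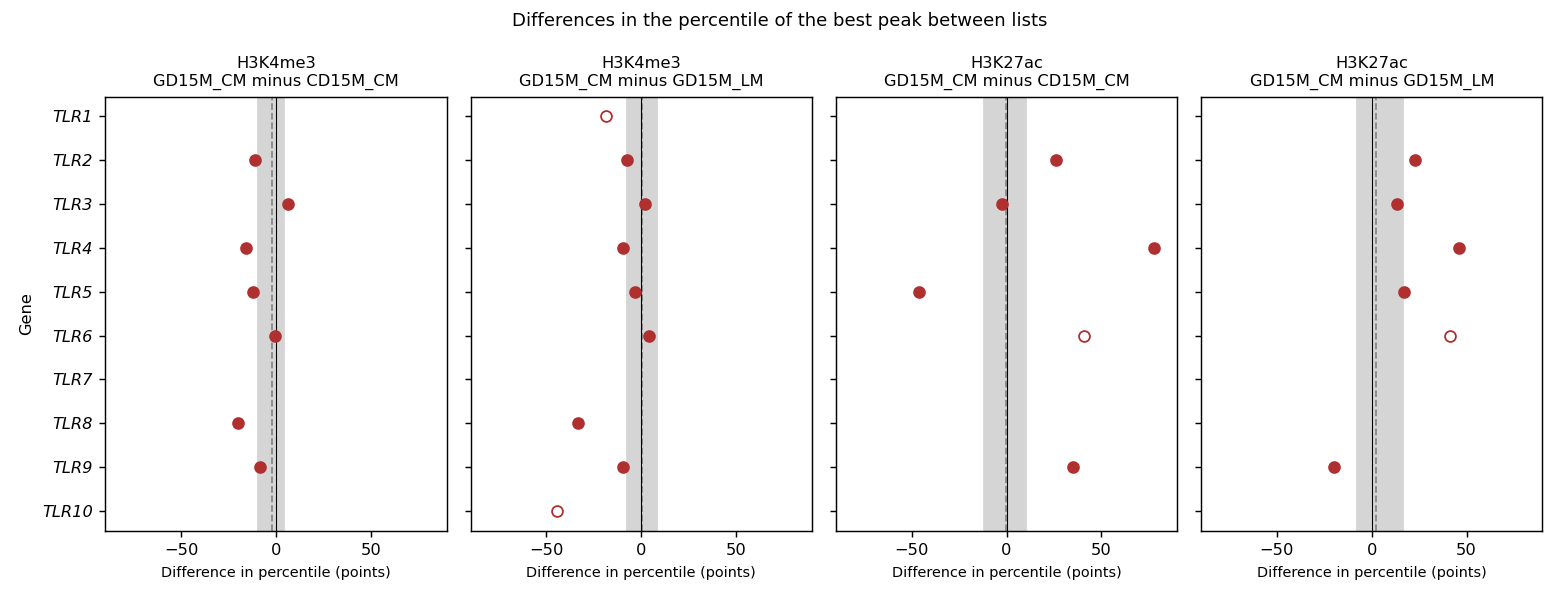
Difference in percentile (points) of each Toll-like receptor gene in the 4 comparisons, with open circles where one of the lists has no peak and no circle where neither has. The grey band runs from the lower to the upper quartile of all genes with a peak in either list, and the dashed line is their median. *TLR4* lies at 78.0 points in the H3K27ac comparison of GD15M_CM with CD15M_CM.

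The comparison of both layers of the pregnant myometrium uses the same GD15M_CM lists, so it is not independent of the one above. For H3K4me3, 0 members ranked at least 10 points higher in GD15M_CM, where 13.1% of all genes did, and 3 ranked as much higher in GD15M_LM (*TLR1*, *TLR8* and *TLR10*), where 12.6% did. The differences, GD15M_CM minus GD15M_LM, were −18.6, −33.4 and −44.2 points. *TLR1* and *TLR10* had a peak in GD15M_LM alone. *TLR4* and *TLR9* were close to the limit at −9.82 and −9.64 points, and *TLR2*, *TLR3*, *TLR5* and *TLR6* differed by between −7.65 and 3.82 points. Among all genes with a peak in either list, 20.9% ranked at least 10 points higher in GD15M_CM and 20.2% in GD15M_LM.

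For H3K27ac, 5 members ranked at least 10 points higher in GD15M_CM than in GD15M_LM, beside 22.2% of all genes. *TLR4* differed by 46.1 points, *TLR6* by 41.1, *TLR2* by 22.8, *TLR5* by 17.2 and *TLR3* by 13.1. The reverse held for *TLR9* alone, at −19.7 points, beside a background of 14.8%, and without the peaks over *TWF2* its difference was 35.6. The fold enrichment of *TLR3* was nearly equal between the layers, with a ratio of 1.03, so its difference rests on the rank within each list. At *TLR5* the best peaks of the layers lay at opposite ends of the gene. At its lower-coordinate site the fold enrichment was 3.44 in GD15M_CM and 2.61 in GD15M_LM, at percentiles of 48.7 and 6.98. At its higher-coordinate site it was 2.03 and 3.32, at percentiles of 0.342 and 31.5. The GD15M_CM list is the longer one, and with equal numbers of top peaks from the lists 2 members remained past 10 points, with *TLR2* at 3.80, *TLR3* at 5.14 and *TLR5* at −1.13 points. The members had a median difference of 19.98 points and all genes with a peak in either list 2.30. Among all genes with a peak in either list, 33.8% ranked at least 10 points higher in GD15M_CM and 22.5% in GD15M_LM.

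Epithelial markers also ranked higher in the circular layer. All 6 of them ranked at least 10 points higher in GD15M_CM than in GD15M_LM for both marks. Of all genes, 22.2% did so for H3K27ac and 13.1% for H3K4me3. The markers had H3K27ac medians of 75.5 in GD15M_CM and 13.6 in GD15M_LM, and H3K4me3 medians of 79.4 and 59.0. The median of CD15M_CM was 68.1 for H3K27ac and 81.5 for H3K4me3. *KRT18* and *KRT19*, keratins of simple epithelia, had no H3K27ac peak in GD15M_LM and ranked at 84.1 and 57.9 in GD15M_CM. The 8 macrophage and monocyte markers did not move one way in H3K27ac, with a median difference of 0.80 points between the layers. *ITGAM* and *AIF1* ranked at least 10 points higher in GD15M_CM, with 71.1 against no peak and 73.7 against 22.0. *CSF1R* ranked higher in GD15M_LM, with 62.4 against 84.6. Of all genes, 22.2% ranked that much higher in GD15M_CM and 14.8% in GD15M_LM. *CD68* and *SPI1* were close, and *CD163*, *MRC1* and *C1QA* had no peak in either layer. Whether these cells took part in the H3K27ac differences of the receptors between the layers was not tested.

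Where both marks were present, H3K27ac mostly lay inside H3K4me3. At *TLR4* the H3K4me3 peaks held 93.4% of the H3K27ac length in GD15M_CM and 100% in both other types. At *TLR5* the shares were 85.8% in GD15M_CM, 98.2% in GD15M_LM and 90.6% in CD15M_CM. At *TLR9*, whose window holds 3 to 8 H3K27ac peaks in a list, the shares were 49.9%, 78.7% and 55.6%. The 3 sites with H3K27ac and without H3K4me3 all belonged to *TLR9*, from −2427 to 1438 bp relative to its lower-coordinate end, which is not shared with *TWF2*.

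Genes that act with the receptors had higher median percentiles than the receptors, as did protein-coding genes with a peak. Of 44 co-receptors, chaperones, adaptors, kinases and inhibitors, 43 could be placed and 39 had a peak in every list. Of all protein-coding genes, 73.1% to 75.8% had a peak in a given list. The 43 had median percentiles of 82.7 in GD15M_CM, 74.2 in GD15M_LM and 80.9 in CD15M_CM for H3K4me3. For H3K27ac they had 87.2, 78.4 and 82.7. Protein-coding genes with a peak had medians of 81.5, 80.2 and 82.5 for H3K4me3 and 88.0, 84.4 and 86.2 for H3K27ac. The medians of the 43 were lower than these except for H3K4me3 in GD15M_CM, but they include genes without a peak. A rank above the receptors was therefore not particular to these genes. *LBP* and *CD36*, which deliver lipid ligands, *IRAK4*, the first kinase recruited by *MYD88*, and *IL1RL1*, an interleukin receptor listed among the inhibitors, had no peak in any list.

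The 12 co-receptor and trafficking genes include the partners of *TLR4*. *CD14*, which hands lipopolysaccharide to the receptor, had H3K27ac percentiles of 87.1 in GD15M_CM, 39.1 in GD15M_LM and 73.1 in CD15M_CM, and H3K4me3 percentiles of 91.6, 65.7 and 82.2. *LY96*, which encodes MD-2, the lipid-binding partner of *TLR4*, had H3K27ac percentiles of 89.2, 27.5 and 99.2. *CD14* and *LY96* thus had their lowest H3K27ac rank in the longitudinal layer, and *TLR4* in the cyclic circular muscle. *CD180*, a relative of *TLR4* on B cells and other immune cells, had 83.2, 48.8 and 16.7, the same order as *TLR4*. *LY86*, the partner of *CD180*, had 90.002, 28.0 and 84.9, and *SLC15A4*, an endosomal transporter needed by the nucleic acid receptors, had 96.5, 69.3 and 79.9. In this group 7 genes ranked at least 10 points higher in GD15M_CM than in GD15M_LM for H3K27ac and 0 the other way, where 22.2% and 14.8% of all genes did. Against CD15M_CM the counts were 6 higher in GD15M_CM and 1 higher in CD15M_CM, beside 17.2% and 18.5%.

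All 6 adaptors had both marks in all types. *MYD88*, used by nearly all Toll-like receptors, had H3K27ac percentiles of 93.0 in GD15M_CM, 74.1 in GD15M_LM and 64.5 in CD15M_CM, and H3K4me3 percentiles of 89.3, 71.4 and 70.1. It was highest in GD15M_CM in both marks. *TIRAP*, which links *MYD88* to *TLR2* and *TLR4*, had 89.7, 83.5 and 39.7 for H3K27ac and 89.0, 98.7 and 97.8 for H3K4me3. *TICAM1*, the adaptor of *TLR3*, had H3K27ac percentiles of 76.1, 54.6 and 75.4, and *TICAM2*, its bridge to *TLR4*, had 75.3, 79.7 and 96.7.

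The kinases and ubiquitin ligases differed in both directions. *CHUK*, a catalytic subunit of the I-kappa-B kinase, had H3K27ac percentiles of 19.6 in GD15M_CM, 81.9 in GD15M_LM and 95.1 in CD15M_CM, whereas its H3K4me3 ranked at 88.7, 90.3 and 89.4. The other catalytic subunit, *IKBKB*, had 89.9, 58.9 and 80.2 for H3K27ac, and the regulatory subunit *IKBKG* had 57.9, 75.1 and 32.5. *IRAK2*, a kinase of the *MYD88* complex, had 86.9, 96.0 and 59.2, and *UBE2N*, which builds the ubiquitin chains used by TRAF6, had 79.5, 98.4 and 99.8. *TAB1*, an activator of the kinase TAK1, had 91.0, 65.5 and 94.7. *TBK1*, which phosphorylates interferon regulatory factors, differed by 21.6 points between the layers in H3K4me3, with 93.7 in GD15M_CM and 72.1 in GD15M_LM.

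Among the 9 inhibitors, *SIGIRR*, a receptor-like protein that holds back signalling, had H3K27ac percentiles of 72.1 in GD15M_CM, 44.9 in GD15M_LM and 27.5 in CD15M_CM. *CYLD*, a deubiquitinase, had the reverse order, 74.9, 84.5 and 97.9. *TNFAIP3*, another enzyme that removes ubiquitin, stayed at or above 92.2 in H3K27ac in all types. Over the whole list, H3K27ac ranked at least 10 points higher in GD15M_CM than in CD15M_CM at 15 of 43 genes and lower at 7, beside 17.2% and 18.5% of all genes. It ranked higher than in GD15M_LM at 14 and lower at 3, beside 22.2% and 14.8% of all genes and 33.8% and 22.5% of genes with a peak in either list. For H3K4me3 the counts were 5 and 3 against CD15M_CM, beside 7.78% and 14.9%, and 16 and 4 against GD15M_LM, beside 13.1% and 12.6%. The list's median H3K27ac differences were 0.60 points against CD15M_CM and 2.26 against GD15M_LM, beside −0.15 and 2.30 for all genes with a peak in either list.

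**Figure D5:**
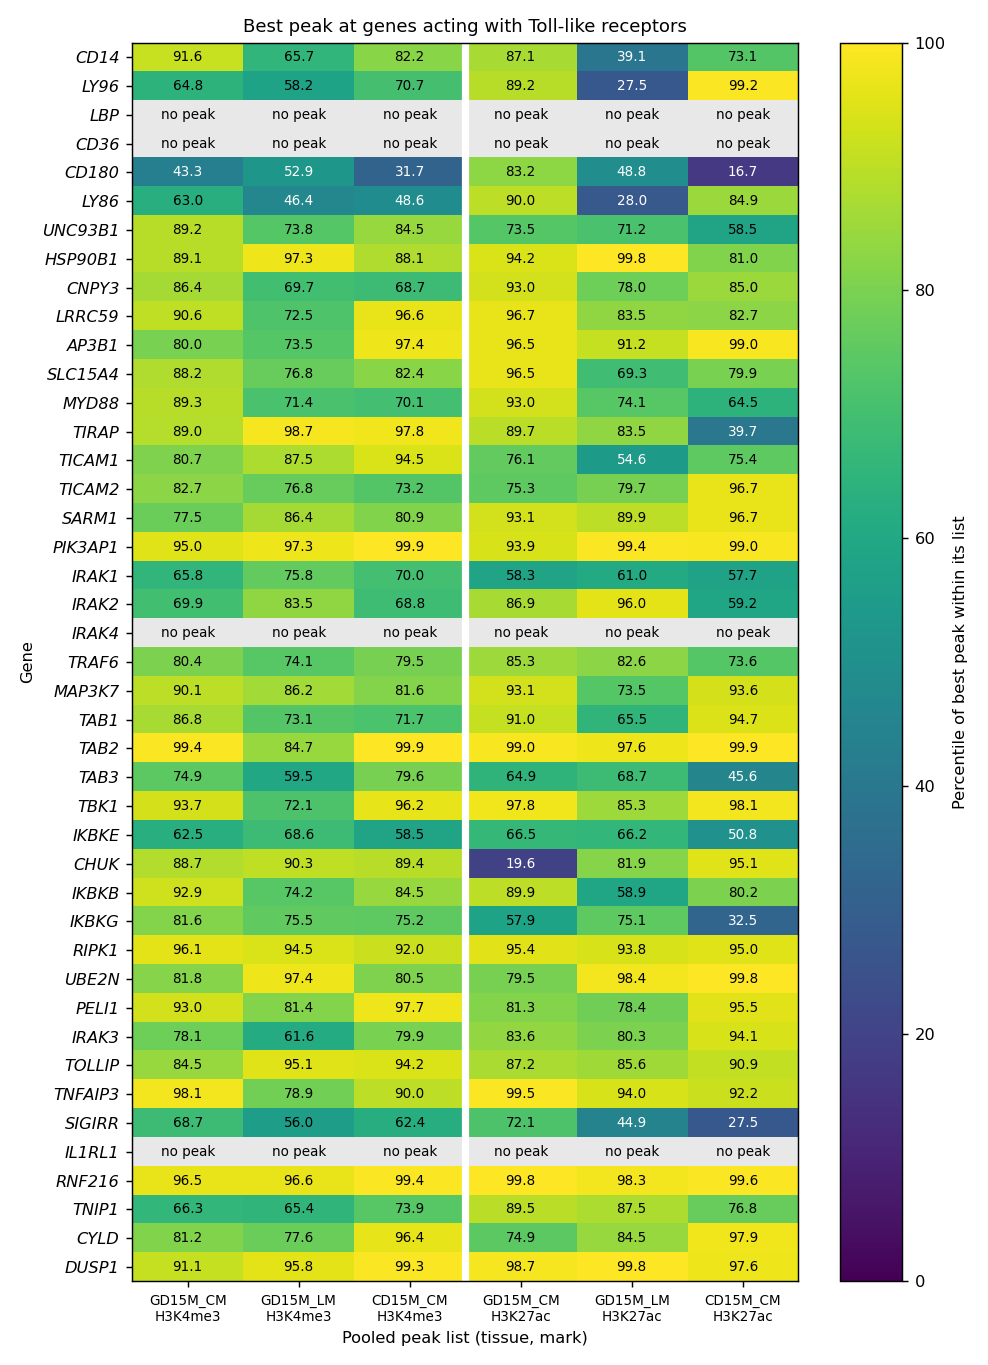
Percentile of the strongest peak within 3 kb of the 43 placed genes that act with the receptors (rows) in the 6 pooled lists (columns), with the colour scale from 0 to 100 and grey cells for no peak. *LBP*, *CD36*, *IRAK4* and *IL1RL1* are grey throughout, and *CHUK* has a single low cell, 19.6, in GD15M_CM H3K27ac.

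The genes whose 6 percentiles were nearest to those of a receptor were found by the mean absolute difference over the lists, among protein-coding genes. For *TLR4* they were *INPP5D*, a phosphatase of blood cells, at 5.47 points, *BEX1* at 5.73 and LOC100517129 at 5.82. For *TLR2* they were *GRM7* at 5.33, *MTMR8* at 5.73 and *PARVG* at 5.89, and for *TLR5* *KCNH3* at 3.68, *GPR75* at 4.31 and *SLC22A6* at 5.04. *TLR3* had closer matches in *GRAMD1B* at 2.66, *TMEM54* at 2.97 and *CXCL16* at 3.07. The match of *TLR9* with *TWF2*, at 0.545 points, rests on shared peaks, and the next were *VTA1* at 4.12 and *C14H22orf39* at 4.13. Likeness over 6 pooled lists has no error and is a description.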

How the data were processed

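H3K4me3 and H3K27ac were profiled by CUT&Tag with IgG controls in GD15M_CM, GD15M_LM and CD15M_CM (n = 2 gilts per type and mark), and all 18 libraries could be assigned from the titles. Per the labels and the study's methods, the authors mapped reads to Sscrofa11.1 with BWA 0.7.17-r1188, removed duplicates and reads with a mapping quality under 25 with SAMtools 1.9 and Picard 2.8.3, merged the data of both gilts, and used MACS2 2.2.6 to call peaks. The deposited fold enrichment is a ratio whose scaling is not given in the sources used here, nor is the use of broad peaks. The paper names IgG as the control for normalising signal, and does not say that peak calling used it. The header of the deposited −log10 p column was unreadable, and it was identified by the order in which MACS2 writes its columns. The column at the place of −log10 q was not used. A p-value here describes one peak and served to filter or rank within a list. Pooling leaves no replicate error, and depth is not in the lists.

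Positions of genes came from a RefSeq table of the same assembly, without strand, so gene ends are named by coordinate. A peak was taken with at least 1 bp in the window from 3 kb before to 3 kb after the gene. The best fold enrichment was turned into a percentile of the list, 10 points or more were counted, and the same was done for all 28210 genes. Python 3.11.15, pandas 2.3.3, NumPy 2.4.6 and Matplotlib 3.10.9 were used. The code was tested on simulated data: 0 of 1600 genes differed from a direct count, and 200 of 200 planted rises were called. The members, gene lists and markers (smooth muscle, macrophage and monocyte, B cell and plasmacytoid dendritic cell, T cell, neutrophil, endothelium, epithelium) were chosen with earlier results of these data known. Besides the receptors, the text names pathway genes that differ by 20 points or more in a comparison or lack a peak, genes in a receptor's window, and the 3 nearest genes in rank. *TNFAIP3*, the markers singled out and unplaced genes were named after their values were seen. The alternatives were a strict threshold, joining peaks less than 1 kb apart, a 1 kb window, the peak centre, ranking by −log10 p and equal numbers of top peaks. A window around either gene end and leaving out peaks over *TWF2* were added after seeing the data. Promoter sequence features and a window around the transcription start alone were planned and not run, because sequence and strand were not used here. *TRAF3* and the T cell marker *ZAP70* had no position in the table.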

Additional observations from a re-analysis of the deposited data

How the results depend on the processing

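No paired analysis was possible because both gilts of each type were pooled before peak calling, and for the same reason no gilt could be left out. Depth per peak is unknown, so weak peaks and missing peaks cannot be given an error. Of the 18 differences of at least 10 points, 18 stayed past that limit with joined peaks, with the peak centre and with a 1 kb window, 16 with either gene end, 16 without the peaks over *TWF2*, 14 when ranked by −log10 p, 13 with equal numbers of top peaks and 7 with the strict threshold. H3K27ac at *TLR4* was past it in all 8 alternatives, from 13.4 to 83.3 points against CD15M_CM and from 13.4 to 49.3 against GD15M_LM, as was *TLR5* against CD15M_CM, from −61.9 to −25.0. For these differences the 1 kb window, the peak centre, either gene end and leaving out peaks over *TWF2* gave the main values unchanged. Those settings therefore add no support. The 13.4 points come from the strict threshold, where *TLR4* had a peak in GD15M_CM and none in the other types. The strict threshold left 1 gene with H3K27ac in each of the 3 types. It gave 1 gene higher in GD15M_CM than in CD15M_CM for H3K4me3 (*TLR3*, 15.4 points). For H3K27ac it gave 1 gene higher in GD15M_CM than in CD15M_CM and 1 higher than in GD15M_LM. Joining peaks gave 6 genes higher in GD15M_LM than in GD15M_CM for H3K4me3, and equal numbers of top peaks gave 5. Equal numbers also gave 2 genes higher in CD15M_CM for H3K4me3 and 2 higher in GD15M_CM than in GD15M_LM for H3K27ac, where *TLR5* turned to −1.13 points. Ranking by −log10 p gave 1 gene higher in CD15M_CM for H3K4me3 and 2 for H3K27ac, and 0 higher in GD15M_LM than in GD15M_CM for H3K27ac. Leaving out the peaks over *TWF2* also gave 0 for the last, and turned H3K27ac at *TLR9* to −5.34 points against CD15M_CM and 35.6 against GD15M_LM. The cause of the changes under the strict threshold, joining, ranking and equal numbers was not tested.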

Other observations

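Peaks outside the windows and within 50 kb of either gene end differed between the genes. *TLR5* had none of either mark in any list, and *TLR2* had no H3K4me3 peak there and 1, 6 and 5 H3K27ac peaks in GD15M_CM, GD15M_LM and CD15M_CM, none above the 51.4 percentile. *TLR3* had 2, 4 and 3 H3K4me3 peaks and 8, 5 and 7 H3K27ac peaks, the strongest at the 99.9 percentile of the CD15M_CM H3K27ac list. Beyond *TLR6*, whose own H3K27ac was a single weak peak, the strongest H3K27ac peaks ranked at 99.2 in GD15M_CM, 78.0 in GD15M_LM and 98.4 in CD15M_CM. These ranges reach other genes, and no peak in them was assigned to a receptor.

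Other immune and vascular markers were present to different degrees. All 5 placed T cell markers had H3K4me3 in all 3 types, with medians of 66.8 in GD15M_CM, 57.8 in GD15M_LM and 52.6 in CD15M_CM, and 3, 2 and 2 of them had H3K27ac. *CD2*, a T cell adhesion receptor, had an H3K27ac percentile of 65.4 in GD15M_CM and no peak in the other types. Of 7 markers of B cells and plasmacytoid dendritic cells, 4, 5 and 4 had H3K4me3, and *MS4A1*, which encodes CD20, had no peak in any list. Of 5 neutrophil markers, *CSF3R* alone had H3K4me3, at percentiles of 83.4, 89.4 and 91.2, and *S100A8* and *MMP9* had no peak in any list. The 6 endothelial markers had H3K4me3 in all types, with medians of 61.3, 62.4 and 66.4, close in rank to the receptors with a peak, and 5 of them had H3K27ac in each type.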
